A study of Mus musculus with 12 samples.

Results

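The 77 mitochondrial ribosomal protein genes were followed in sorted mouse regulatory T cells (Tregs) with and without CD25, a subunit of the high-affinity interleukin-2 receptor. They are all gene symbols of the count table that begin with Mrpl (48 genes) or Mrps (29 genes) and a number, out of 24421 symbols, and all 77 passed the filter on low counts that left 12461 genes for testing. No pseudogene symbol of this kind was present. Each group held 3 libraries of bulk RNA, and a library pooled the spleens and nodes of 2 to 3 mice. The groups were CD25 knockout (KO) effector Tregs (eTreg, sorted as low in CD62L), wild-type (WT) eTreg, KO central Tregs (cTreg, high in CD62L) and WT cTreg. All mice received tamoxifen into the peritoneum at 2 mg/kg for 5 days and were harvested 10 days later. All carried the R26tomato+/+ and Foxp3eGFPERT2+/+ alleles, so that the tamoxifen-dependent recombination is driven from Foxp3, and all cells were sorted as live, CD4+, GFP+ and tdTomato+. KO cells were also sorted as CD25-low, so the KO groups are Tregs that had lost surface CD25 and were still present 10 days later. The labels write the CD25 alleles as CD25FL/FL and CD25WT/WT, but their genotype field gives the floxed allele to the libraries titled WT. The groups here are those of the titles, which the cell type field shares. Nothing in the sources used here states age, sex or strain background.

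The mitochondrial ribosome translates the few messages of the mitochondrial genome, which encode core subunits of the respiratory chain and the ATP synthase. Its ribosomal RNAs come from the mitochondrial genome, while its proteins are encoded in the nucleus, made in the cytosol and imported. One group of these proteins descends from bacterial ribosomal proteins and another is particular to mitochondria. Activated T cells are known to enlarge their mitochondrial mass and translation capacity, and Myc, NRF1 and ETS-family factors (the GABP complex) are known regulators of genes of this kind.

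Total counts ran from 14567313 to 19121577 per library. The targeted gene Il2ra stood at 116 to 132 CPM, that is read counts scaled to a fixed library total, in KO eTreg, 464 to 562 in WT eTreg, 112 to 122 in KO cTreg and 523 to 579.8 in WT cTreg. The scaling used TMM, a trimmed-mean factor per library. Of the Treg markers, Foxp3 stood at 158 to 187 CPM in KO eTreg, 231 to 256 in WT eTreg, 217 to 233 in KO cTreg and 385 to 407 in WT cTreg. Ikzf2, which encodes Helios, went another way, at 2125 to 2254 CPM in KO eTreg, 1829 to 1924 in WT eTreg, 766 to 783 in KO cTreg and 545 to 620.2 in WT cTreg. The precursor of ribosomal RNA, Rn45s, took 3.19 to 3.32% of counts in KO eTreg, 4.11 to 4.34% in WT eTreg, 18.1 to 18.5% in KO cTreg and 22.4 to 24.4% in WT cTreg. The 2 CD8 T cell markers summed to 5.48 to 5.51 CPM in KO eTreg, 6.18 to 6.96 in WT eTreg, 9.20 to 10.6 in KO cTreg and 10.1 to 12.3 in WT cTreg. Nearly all of this was Cd8b1, and Cd8a was at most 0.61 CPM. Cd79b, known from B cells, stood at 7.88 to 10.4 CPM in KO eTreg, 14.4 to 14.8 in WT eTreg, 7.26 to 9.27 in KO cTreg and 10.4 to 12.03 in WT cTreg, while Ms4a1 and Pax5 were below 1 CPM in every library. Pecam1, from the stroma list, stood at 108 to 128 CPM in KO eTreg, 113 to 126 in WT eTreg, 200.2 to 204 in KO cTreg and 252 to 278 in WT cTreg, and Col1a1 of that list was at most 2.64 CPM. The 3 NK cell markers summed to 11.9 CPM in KO eTreg replicate 2 and to at most 1.93 CPM in the other libraries. The part of other cells in the results was not tested. The comparisons of genotypes and of gates share libraries, so that a gene's values in both are not independent. In bulk samples, fewer cells of a type and less RNA per cell cannot be told apart.

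Promoter sequence from RefSeq (GRCm38.p6) was found for 68 of the 77 genes, as the window from 250 bases before to 50 bases after the start. The NRF1 motif, which reads GCGCA, any base, GCGC and was searched on both strands like the others, occurred in 13 of the 68 windows (19.1%), against 12% of the windows of all tested genes and 5.19% of all windows. The ETS motif CCGGAAG occurred in 25 (36.8%), against 21.1% of tested and 9.93% of all windows. The YY1 motif, AAGATG followed by GCGG, occurred in 5 (7.35%), against 2.51% and 0.995%, and the E-box CACGTG, which Myc-Max dimers bind, in 5 (7.35%), against 11.7% and 8.09%. A match describes letters and is no evidence of binding.

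To show what such promoters look like, 100 bases are given for 4 genes that recur below, 5′ to 3′ on the plus strand, with the motif in capitals. Mrpl52 has the highest level per length, Mrpl34 was lower in eTreg without an offset for GC content, Mrpl12 had the lowest adjusted p of the family for KO against WT eTreg, and Mrps18a is a large-subunit protein with a small-subunit name.
Mrpl12 (chr11:120484513-120484612, NRF1 motif): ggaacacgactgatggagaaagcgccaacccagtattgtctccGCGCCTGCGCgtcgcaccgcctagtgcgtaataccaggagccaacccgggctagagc
Mrpl34 (chr8:71464826-71464925, ETS motif): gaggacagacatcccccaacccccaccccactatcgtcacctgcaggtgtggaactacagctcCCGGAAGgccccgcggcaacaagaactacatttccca
Mrpl52 (chr14:54426809-54426908, ETS motif on the reverse strand): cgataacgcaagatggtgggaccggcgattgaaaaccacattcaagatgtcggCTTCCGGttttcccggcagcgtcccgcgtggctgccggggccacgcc
Mrps18a (chr17:46110886-46110985, ETS motif): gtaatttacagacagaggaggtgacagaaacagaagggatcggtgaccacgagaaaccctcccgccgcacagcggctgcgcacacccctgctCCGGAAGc
The motifs begin 81, 37, 47 and 26 bases before the RefSeq starts of Mrpl12, Mrpl34, Mrpl52 and Mrps18a, in that order. For Mrpl12 and Mrps18a the 24 and 18 bases nearest the start were left out because an annotated exon covers them.

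The family is scattered over 17 chromosomes, with 10 members on chromosome 11 and 8 on chromosome 17 (GENCODE vM21, mm10). Its transcripts are short, with a median length of 1223 bases against 2591 over all tested genes, and their median GC content of 50.1% was near that of all tested genes (50.5%). Of the 77 genes, 18 (23.4%) start within 1000 bases of a gene on the other strand that runs the opposite way, against 11.1% of 11118 tested protein-coding genes. Examples are Mrps12 with Sars2 at 172 bases, which encodes a mitochondrial seryl-tRNA synthetase, and Mrpl32 with Psma2 at 75 bases, which encodes a proteasome subunit. Exons of 29 members overlap those of another gene, 25 of them on the opposite strand. No source used here gives the strand setting of the counting, and the values of these members are uncertain where a partner is highly expressed.

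Members' levels are compared with each other only as RPKM, that is CPM per 1000 bases of transcript, averaged over the 12 libraries. The median member stood at 12.3 RPKM and the range ran from 2.49 to 69.8. Mrpl52, a large-subunit protein specific to mitochondria, was highest at 69.8 RPKM, with group means of 51.7 in KO eTreg, 53.4 in WT eTreg, 84.8 in KO cTreg and 89.2 in WT cTreg. Mrpl24 (56.0 RPKM) and Mrpl33 (53.3 RPKM), which have bacterial homologues, came next. The 3 lowest were Mrpl47 at 2.49 RPKM, Mrps25 at 3.49 RPKM and Mrpl35 at 3.73 RPKM. The lowest single count of any member in any library was 32, and the members' median coefficient of variation within a group was between 5.81% in WT eTreg and 7.48% in KO cTreg. Exons of Mrpl47 overlap those of Actl6a and Ndufb5, and those of Mrps25 overlap Nr2c2 over 4590 bases, in each case on the opposite strand.

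Summed over the family, the level was lower in eTreg than in cTreg and differed little by genotype. The 77 genes together stood at 1305, 1365 and 1322 CPM in KO eTreg and 1361, 1386 and 1399 CPM in WT eTreg. They stood at 1514, 1633 and 1591 CPM in KO cTreg and 1665, 1565 and 1617 CPM in WT cTreg. The 6 eTreg libraries lay below the 6 cTreg libraries, while KO and WT overlapped in each gate. For the Mrps genes alone KO eTreg, at 445 to 452 CPM, lay below WT eTreg, at 463 to 472 CPM. This order depends on the scaling: as a share of all raw counts the family took 0.146 to 0.153% in KO eTreg, 0.154 to 0.158% in WT eTreg, 0.139 to 0.1504% in KO cTreg and 0.137 to 0.141% in WT cTreg, so that the eTreg share was not lower. The raw share includes Rn45s in its total, whose share was several times higher in cTreg.

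**Figure D1:**
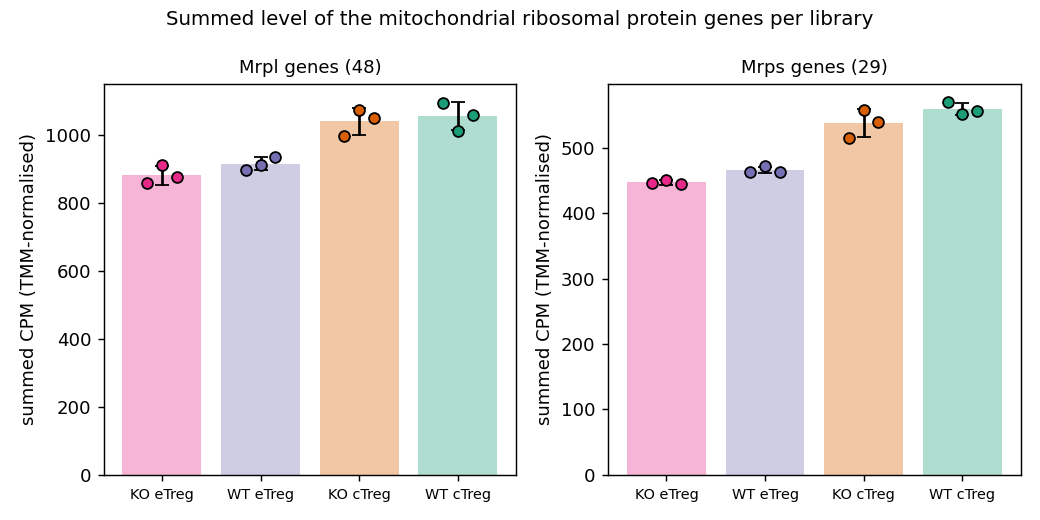
Summed TMM-normalised CPM of the Mrpl genes (left) and Mrps genes (right) in each library. Bars are means, error bars SD and points the 3 libraries of a group. The Mrpl genes averaged 883 and 916 CPM in KO and WT eTreg, and 1041 and 1056 CPM in KO and WT cTreg. The Mrps genes averaged 448 and 466 CPM in KO and WT eTreg, and 538 and 559 CPM in KO and WT cTreg.

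KO cTreg were set against WT cTreg to see how the family differs when central cells have lost CD25. Most of the family moved little: 3 genes rose (Mrps6, Mrps21 and Mrpl4) and 7 fell (Mrpl2, Mrpl23, Mrps2, Mrpl3, Mrpl15, Mrps35 and Mrps17) at an adjusted p under 0.05 in edgeR's quasi-likelihood test, where p-values had Benjamini-Hochberg adjustment over the 12461 genes. Over all genes tested, 14.8% rose and 12.6% fell, so the family's share of calls lay below the background in both directions. The members' median log2 fold change, KO over WT, was -0.04, against 0.00 over all genes. Within 0.26 of no change in either direction lay 67 of the 77 members and 7937 of the 12461 genes tested. In 6 members all KO libraries lay above all WT libraries (20.9% of all genes did so), and in 15 all lay below (19.5% of all genes).

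Among small-subunit proteins with a bacterial homologue, 2 of 16 rose and 2 fell. Mrps6 (chromosome 16, 92058270 to 92112227), whose bacterial counterpart sits on the platform of the small subunit, stood at 19.4, 18.6 and 18.7 CPM in KO cTreg replicates 1 to 3, against 14.1, 12.3 and 11.3 CPM in WT cTreg. The groups did not overlap, and the log2 fold change was 0.59 ± 0.10 (SE, n = 3 per group, edgeR adjusted p = 0.00035), the largest in the family. In mouse annotation Mrps6 shares exon sequence on the same strand with Slc5a3, a myo-inositol transporter gene, over 159 bases. Slc5a3 averaged 51.4 CPM in KO cTreg and 38.3 CPM in WT cTreg, and its log2 fold change was 0.42 ± 0.13 (edgeR adjusted p = 0.0361), so the 2 genes rose together and reads in their shared exon cannot be told apart.

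Mrps21 stood at 20.5, 23.0 and 27.3 CPM in KO cTreg and at 17.4, 19.3 and 16.9 CPM in WT cTreg. All KO libraries lay above all WT libraries, with replicate 3 of KO highest, and the log2 fold change was 0.40 ± 0.11 (edgeR adjusted p = 0.0145). Without that library it was 0.28 and the call was lost (adjusted p = 0.0986), and without WT cTreg replicate 3 it was lost as well (adjusted p = 0.0608). Mrps2 (chromosome 2, 28468066 to 28471178), homologous to a bacterial protein on the back of the small subunit, went the other way, with 20.7, 20.7 and 18.7 CPM in KO cTreg and 26.0, 26.2 and 24.5 CPM in WT cTreg. It fell by 0.35 ± 0.08 on the log2 scale (edgeR adjusted p = 0.00214), with no overlap between groups. Mrps17 had the smallest margin of the calls in this class, at 19.9, 21.3 and 20.6 CPM in KO cTreg against 23.3, 25.6 and 23.1 CPM in WT cTreg (log2 fold change -0.22 ± 0.08, edgeR adjusted p = 0.0491).

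Of the 10 small-subunit proteins specific to mitochondria, 9 had a negative log2 fold change and the median was -0.15, but only Mrps35 passed the test. It stood at 17.8, 20.6 and 20.9 CPM in KO cTreg and 22.8, 22.4 and 24.0 CPM in WT cTreg (log2 fold change -0.22 ± 0.08, edgeR adjusted p = 0.0468). Mrps18b is one of 3 mammalian relatives of a single bacterial protein. In the ribosomal nomenclature followed for the classes, Mrps18c holds the place of that protein, and Mrps18a and Mrps18b count as specific to mitochondria despite the kinship. Mrps18b had 11.4, 12.2 and 9.69 CPM in KO cTreg and 15.2, 13.4 and 13.6 CPM in WT cTreg. Its groups did not overlap but its adjusted p was 0.0779. Mrps28, which has a bacterial homologue, lay lowest of the uncalled genes of the family, at a log2 fold change of -0.38 ± 0.19 (edgeR adjusted p = 0.169), and counts for it were low, at 5.01 to 6.15 CPM in KO cTreg and 6.56 to 7.94 CPM in WT cTreg.

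In the large subunit, the calls were among the 30 proteins with a bacterial homologue, of which 1 rose and 4 fell. Mrpl4 (chromosome 9, 21002738 to 21008839), whose bacterial counterpart lines the tunnel through which the new chain leaves, stood at 35.3, 36.8 and 36.5 CPM in KO cTreg and 29.3, 30.3 and 31.1 CPM in WT cTreg. It rose by 0.26 ± 0.08 on the log2 scale (edgeR adjusted p = 0.0302), and the groups did not overlap. Mrpl23 (chromosome 7, 142532686 to 142540747), at the exit of that tunnel in bacteria, had 12.7, 15.4 and 13.6 CPM in KO cTreg and 19.6, 18.2 and 15.98 CPM in WT cTreg (log2 fold change -0.36 ± 0.12, edgeR adjusted p = 0.0353). These 2 genes, named because they were called, thus had opposite signs. Neither call was stable: each was lost when certain single cTreg libraries were dropped. With WT cTreg replicate 1 dropped, the log2 fold changes were 0.24 for Mrpl4 and -0.29 for Mrpl23 (edgeR adjusted p = 0.0886 and 0.138). Members were not compared by their place at the tunnel, so the pair does not describe tunnel proteins as a set.

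Mrpl2 (chromosome 17, 46646229 to 46650139), which lies close to the catalytic centre, had 15.04, 14.5 and 14.7 CPM in KO cTreg and 22.6, 16 and 19.2 CPM in WT cTreg. The KO libraries were close together and all below WT, of which replicate 1 was far the highest. The log2 fold change was -0.38 ± 0.13 (edgeR adjusted p = 0.0338), and without that WT library it was -0.25 and no longer called (adjusted p = 0.181). Mrpl15 stood at 30.01, 28.95 and 29.1 CPM in KO cTreg and 33.8, 36.2 and 32.7 CPM in WT cTreg (log2 fold change -0.22 ± 0.08, edgeR adjusted p = 0.0392). Mrpl3, also near the catalytic centre, stood at 26.4, 25.5 and 25.8 CPM in KO cTreg and 28.2, 28.8 and 33.2 CPM in WT cTreg (log2 fold change -0.22 ± 0.07, edgeR adjusted p = 0.0388). In both genes the groups did not overlap.

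None of the 20 large-subunit proteins specific to mitochondria passed the test in KO against WT cTreg, 0 did so at an unadjusted p under 0.05, and DESeq2's Wald test called 0 as well. Their median log2 fold change was 0.03 and they ran from -0.14 to 0.22. The class includes Mrps18a and Mrps30, which bear small-subunit names. Mrps36, which is known as a subunit of the 2-oxoglutarate dehydrogenase complex and not as part of the mitoribosome, stood at 3.63, 6.89 and 5.08 CPM in KO cTreg and 4.25, 5.48 and 4.69 CPM in WT cTreg, which overlapped.

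**Figure D2:**
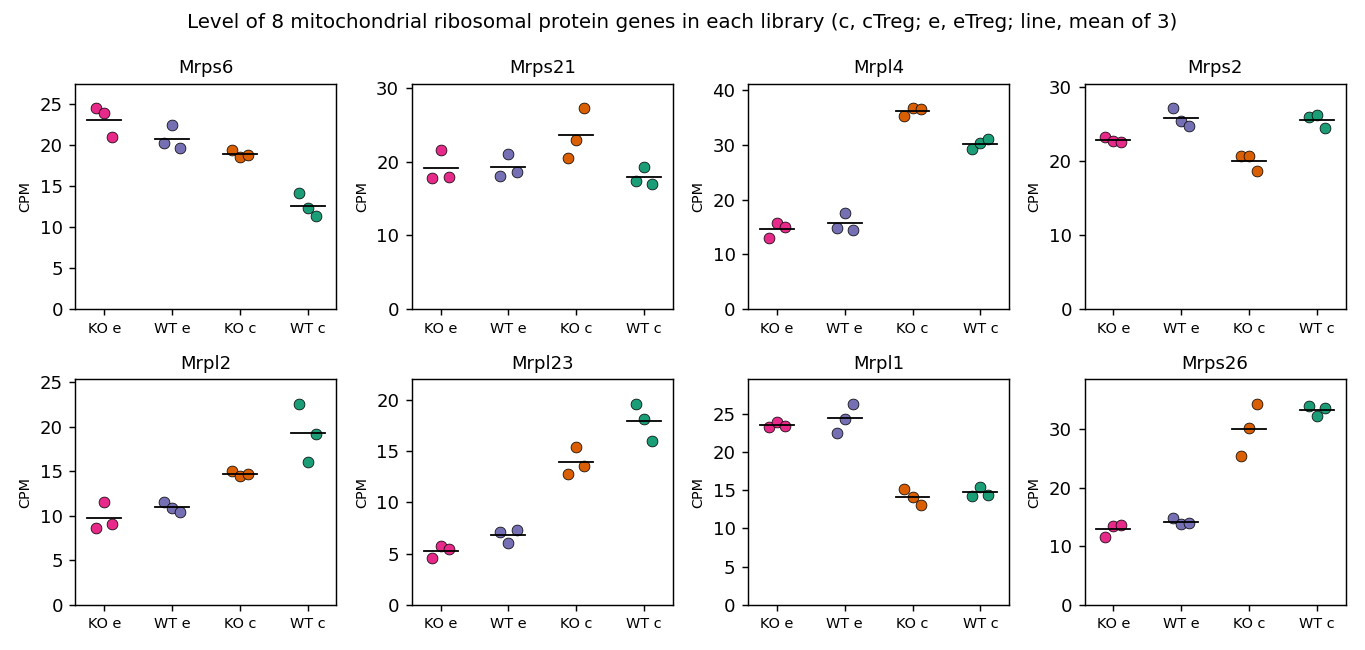
CPM of 8 members in the 3 libraries of each group, with the group mean as a line and the axis from 0. Mrps6, Mrps21 and Mrpl4 lay higher and Mrps2, Mrpl2 and Mrpl23 lower in KO cTreg than in WT cTreg. Mrpl1 lay higher and Mrps26 lower in eTreg than in cTreg in either genotype.

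Only Mrps6 and Mrps2 passed the test under every alternative setting, including leaving out each library. The number of members that fell was between 1 and 6 when any single library of the 12 was left out (2, 4 and 3 without WT cTreg replicates 1, 2 and 3, and 1, 2 and 2 without KO cTreg replicates 1, 2 and 3), and 3 by DESeq2's Wald test. Of all genes, 9.14 to 12.6% fell when a library was left out, and 11.6% by DESeq2's Wald test. With an offset for transcript length and GC content 13 members fell and 2 rose, against 18.5% and 12.1% of all genes, and Mrpl4 lost its call (adjusted p = 0.116).

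The same question was put to the effector gate with KO eTreg and WT eTreg. No member was called higher or lower by edgeR's quasi-likelihood test, against 3.25% of all genes called higher and 3.4% called lower. At an unadjusted p under 0.05, 7 members were lower in KO eTreg (Mrpl12, Mrpl23, Mrps2, Mrps28, Mrps27, Mrps5 and Mrpl49) and 0 were higher. Of the 12461 genes tested, 1160 were lower and 1263 higher at that unadjusted p. DESeq2's Wald test called 0 members, with 2 at an unadjusted p under 0.05, when it called 3.58% of all genes lower and 3.65% higher. The log2 fold change was below 0 in 58 of the 77 members, with a median of -0.06 against 0.01 over all genes. All 3 KO libraries lay below all 3 WT libraries for 12 members (11.7% of all genes) and above them for 1, Mrpl44 (13.5% of all genes).

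Mrpl12 (chromosome 11, 120484613 to 120489065), a protein of the stalk that recruits translation factors, which is also known to bind the mitochondrial RNA polymerase, came closest to the threshold. It stood at 13.7, 11.97 and 13.8 CPM in KO eTreg and 14.8, 18.2 and 16.4 CPM in WT eTreg, with no overlap. The log2 fold change was -0.33 ± 0.10 (edgeR adjusted p = 0.0621, unadjusted p = 0.00463). The replicate numbers may pair the eTreg libraries, and with the replicate number as a block within those 6 libraries Mrpl12 passed the test (adjusted p = 0.0464), the 1 member to do so, when 6.48% of all genes were called lower and 7.54% higher. It also passed without WT eTreg replicate 1 (adjusted p = 0.0424) and when libraries were scaled by total count without Rn45s (adjusted p = 0.0378). Of all genes, 2.66% and 4.38% were called lower in these settings, in that order. With the block and the length and GC offset together, or with the block over all 12 libraries, 0 members were called. Its promoter holds the NRF1 motif shown above, and its exons overlap those of Gm16755 on the opposite strand over 200 bases.

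Of the genes called in cTreg, Mrpl23 had the same log2 fold change in eTreg, -0.36 ± 0.14, with 4.62, 5.72 and 5.49 CPM in KO eTreg and 7.08, 6.04 and 7.35 CPM in WT eTreg. The groups did not overlap, but at these low levels the adjusted p was 0.137. Mrps2 was at 23.3, 22.8 and 22.6 CPM in KO eTreg and 27.2, 25.4 and 24.8 CPM in WT eTreg, again with no overlap (log2 fold change -0.17 ± 0.07, edgeR adjusted p = 0.183). Mrps6 stood at 24.5, 23.8 and 20.9 CPM in KO eTreg and 20.2, 22.5 and 19.6 CPM in WT eTreg, which overlapped (0.15 ± 0.09, adjusted p = 0.403). Mrps21 and Mrpl4 differed by -0.01 ± 0.11 and -0.10 ± 0.09, and Mrpl2 by -0.17 ± 0.13, with overlapping groups. Mrpl44, an RNase III-like protein of the large subunit, stood at 15.3, 14.3 and 15.5 CPM in KO eTreg and 12.7, 12.2 and 13.6 CPM in WT eTreg (0.23 ± 0.11, adjusted p = 0.27).

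The difference between the KO effects, eTreg minus cTreg, was tested as an interaction. No member passed the test in edgeR or in DESeq2, against 3% of all genes called lower and 0.803% called higher, and 3 members had an unadjusted p under 0.05 in either tool. In edgeR these were Mrps6 (interaction -0.44 ± 0.14 on the log2 scale, adjusted p = 0.0905), Mrpl4 (-0.36, adjusted p = 0.13) and Mrps21 (-0.41 ± 0.16, adjusted p = 0.184), the 3 genes that rose in KO cTreg. So the data did not show that these effects differ between the gates. Across the 77 members the log2 fold changes in the 2 gates, which come from different libraries, had a Pearson correlation of 0.545 and a Spearman correlation of 0.480, beside 0.559 and 0.521 over all genes tested. They were negative in both gates for 38 members and positive in both for 12. Of the 12461 genes tested, 4152 were negative in both and 4428 positive in both.

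**Figure D3:**
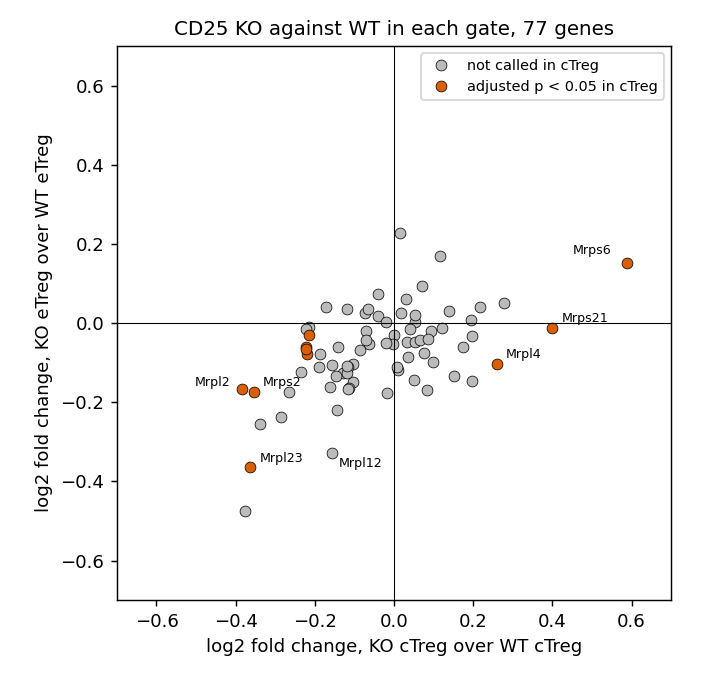
Log2 fold change of KO over WT in cTreg (horizontal) and eTreg (vertical) for the 77 genes. Orange points passed an adjusted p of 0.05 in cTreg, and none did in eTreg. The 4 unlabelled orange points are Mrpl3, Mrpl15, Mrps17 and Mrps35, and the lowest point is Mrps28.

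The comparison of eTreg with cTreg describes how the family differs between the 2 gates, within WT and within KO. The larger part of the family was lower in eTreg. In WT, 40 members were lower and 10 higher (background 35.8% and 35.7% of all genes), and in KO 41 were lower and 12 higher (35.8% and 36.1%), by edgeR's quasi-likelihood test. The median log2 fold change, eTreg over cTreg, was -0.21 in WT and -0.27 in KO, against 0.00 over all genes in both. Groups did not overlap for 43 lower and 11 higher members in WT (37.6% and 37.4% of all genes) and for 43 and 13 in KO (37.1% and 37.5%). The WT and KO comparisons share no library. Their log2 fold changes correlated at 0.946 (Pearson) and 0.941 (Spearman) over the 77 members, beside 0.879 and 0.913 over all genes, and 35 members were called lower in both, 9 higher in both and 0 in opposite directions. Of the 12461 genes tested, 3881 were called lower in both, 3892 higher in both and 32 in opposite directions.

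Split by role, 10 of the 16 small-subunit proteins with a bacterial homologue were lower in WT eTreg and 1 was higher, with a median of -0.31. Mrps28 stood at 1.90, 2.78 and 1.77 CPM in KO eTreg, 2.42, 3.64 and 2.89 in WT eTreg, 6.15, 5.18 and 5.01 in KO cTreg and 7.94, 6.56 and 6.68 in WT cTreg. It fell by 1.23 ± 0.20 on the log2 scale in WT (edgeR adjusted p = 3.63e-05) and by 1.33 ± 0.21 in KO (adjusted p = 2.68e-05). Mrps6 was the 1 gene of the class that was higher in WT eTreg, with a log2 fold change of 0.73 ± 0.10 in WT (edgeR adjusted p = 4.87e-06) and 0.29 ± 0.09 in KO (adjusted p = 0.0107). Slc5a3, which shares its exon, was higher too, by 1.48 in WT (adjusted p = 6.22e-07) and 1.28 in KO (adjusted p = 1.72e-06).

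Of the 10 small-subunit proteins specific to mitochondria, 5 were lower and 2 higher in WT eTreg. Mrps26 stood at 11.7, 13.4 and 13.6 CPM in KO eTreg and 14.8, 13.7 and 14.0 in WT eTreg, against 25.4, 30.2 and 34.4 in KO cTreg and 33.9, 32.2 and 33.7 in WT cTreg. The gates were far apart in both genotypes, with log2 fold changes of -1.23 ± 0.10 in WT (edgeR adjusted p = 1.09e-08) and -1.22 ± 0.10 in KO (adjusted p = 1.45e-08). Mrps34 was lower by a similar size, -1.10 ± 0.09 in WT and -0.95 ± 0.09 in KO (adjusted p = 1.19e-08 and 6.92e-08). Its exons overlap those of Mapk8ip3 on the opposite strand over 576 bases, and that gene was lower as well (-0.53 in WT and -0.46 in KO). Mrps33 was higher, at 8.02, 9.98 and 9.59 CPM in KO eTreg, 9.26, 11.02 and 9.39 in WT eTreg, 4.96, 8.23 and 7.32 in KO cTreg and 6.74, 7.21 and 8.45 in WT cTreg. Its log2 fold changes of 0.41 ± 0.17 in WT and 0.42 ± 0.17 in KO passed narrowly (edgeR adjusted p = 0.0363 and 0.0321), and the KO groups overlapped. In KO it was 0.24 without KO cTreg replicate 1 (adjusted p = 0.178), and the call also ended without KO eTreg replicate 2 or 3. In WT it ended without WT eTreg replicate 2 or WT cTreg replicate 1 or 2.

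Among the 30 large-subunit proteins with a bacterial homologue, 16 were lower and 4 higher in WT eTreg, and 16 lower and 5 higher in KO eTreg. Mrpl23 had the strongest fall of the family, with the CPM given above and a log2 fold change of -1.40 ± 0.13 in both genotypes (edgeR adjusted p = 4.11e-08 in WT and 6.23e-08 in KO). Mrpl4 stood at 13.0, 15.7 and 15.1 CPM in KO eTreg and 14.9, 17.5 and 14.5 CPM in WT eTreg, so that its level in either eTreg group was below every cTreg library given above. Its log2 fold change was -0.95 ± 0.09 in WT and -1.31 ± 0.09 in KO (adjusted p = 5.58e-08 and 1.18e-09). Mrpl28 (-0.98 ± 0.09 in WT and -0.87 in KO) and Mrpl34 (-0.72 ± 0.11 and -0.95 ± 0.11) were lower too. Mrpl34 stood at 7.04, 7.46 and 7.87 CPM in KO eTreg, 7.75, 6.78 and 7.13 in WT eTreg, 13.6, 15.5 and 14.1 in KO cTreg and 12.2, 11.9 and 11.6 in WT cTreg.

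Mrpl1, the protein of the stalk beside the exit site for spent tRNA, was the member with the largest rise in eTreg. It stood at 23.2, 23.9 and 23.4 CPM in KO eTreg and 22.4, 24.3 and 26.3 CPM in WT eTreg, against 15.2, 14.1 and 13.0 CPM in KO cTreg and 14.3, 15.4 and 14.4 CPM in WT cTreg. The log2 fold change was 0.73 ± 0.09 in WT (edgeR adjusted p = 1.08e-06) and 0.74 ± 0.09 in KO (adjusted p = 8.75e-07). Mrpl32, whose maturation depends on a mitochondrial protease, was higher by 0.57 ± 0.09 in WT and 0.38 ± 0.09 in KO (adjusted p = 2.12e-05 and 0.00106). Mrpl47 was higher by 0.41 ± 0.13 and 0.48 ± 0.13 (adjusted p = 0.0118 and 0.0039), and Mrpl3 by 0.20 ± 0.07 and 0.39 ± 0.07 (adjusted p = 0.0167 and 0.000115).

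In the 20 large-subunit proteins specific to mitochondria, 9 were lower and 3 higher in WT eTreg, and 11 lower and 2 higher in KO eTreg. Mrpl52 stood at 21.0, 25.1 and 22.3 CPM in KO eTreg and 25.2, 23.4 and 21.95 in WT eTreg, against 35.8, 39.6 and 36.7 in KO cTreg and 42.6, 38.2 and 37.1 in WT cTreg. Every eTreg library lay below every cTreg library (log2 fold change -0.74 ± 0.08 in WT, edgeR adjusted p = 5.26e-07, and -0.71 in KO, adjusted p = 8.24e-07). Mrpl39 and Mrpl50 were higher in both genotypes, Mrpl39 by 0.44 ± 0.07 and 0.36 and Mrpl50 by 0.46 ± 0.09 and 0.51 ± 0.08, in WT and in KO. Mrpl44 was lower in WT (log2 fold change -0.40 ± 0.11, adjusted p = 0.00387) and stood at -0.19 in KO (adjusted p = 0.124). Mrps30 narrowly missed the threshold in WT (-0.18 ± 0.08, adjusted p = 0.055) and narrowly passed it in KO (-0.19 ± 0.08, adjusted p = 0.0462), a call that ended under most alternatives (adjusted p = 0.117 in DESeq2's Wald test and 0.11 with scaling without Rn45s). With the length and GC offset it was -0.67.

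The 3 relatives of one bacterial protein differed in what was measured between the gates. Mrps18b was lower in eTreg (-0.58 ± 0.14 in WT, edgeR adjusted p = 0.00113, and -0.49 ± 0.14 in KO, adjusted p = 0.00448), and so was Mrps18a (-0.34 ± 0.10, adjusted p = 0.00534, and -0.46 ± 0.10, adjusted p = 0.000462). Mrps18c stood at 13.0, 16.02 and 15.7 CPM in KO eTreg, 15.3, 15.6 and 12.7 in WT eTreg, 14.4, 12.1 and 13.1 in KO cTreg and 13.6, 14.5 and 13.3 in WT cTreg, and did not pass the test in any comparison. Whether the 3 genes differ from one another was not tested. The rescue factor Mrpl58 is in the table under its older symbol Ict1 and so is no member by the rule. It was lower in eTreg by a log2 fold change of -0.64 ± 0.09 in WT (edgeR adjusted p = 8.58e-06) and -0.61 in KO (adjusted p = 1.65e-05).

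**Figure D4:**
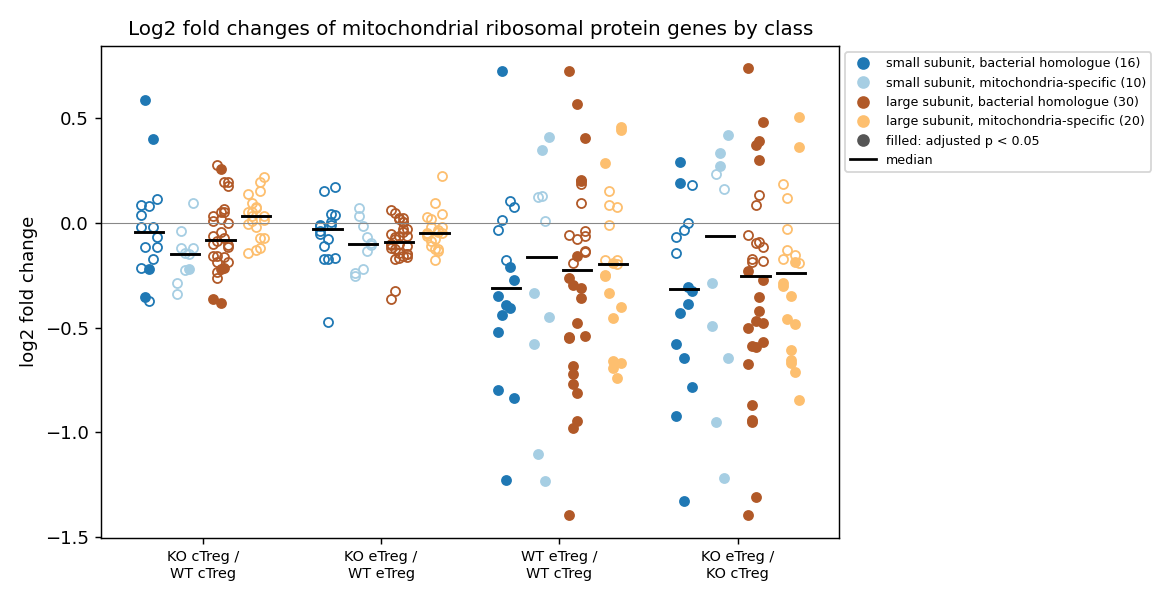
Log2 fold change of each member in 4 comparisons, by class (small or large subunit, with a bacterial homologue or specific to mitochondria, numbers of genes in brackets). Filled points passed an adjusted p of 0.05 in edgeR and lines are class medians. The points spread wider in the comparisons of gates than in those of genotypes, and the class medians lie between -0.32 and -0.06 in the comparisons of gates.

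Within the family, the difference between the gates went with the GC content of the transcript. Over the 77 members the log2 fold change, eTreg over cTreg, had a Pearson correlation with GC content of -0.652 in WT and -0.676 in KO, and a Spearman correlation of -0.667 and -0.690. All genes tested had Pearson correlations of -0.409 and -0.510 and Spearman correlations of -0.573 and -0.619. These are correlations across genes that share the same libraries. Of the 26 members at or below 48.4% GC, 9 were higher and 5 lower in WT eTreg. Of the 26 at or above 52.5%, 1 was higher (Mrps6) and 23 were lower. In KO eTreg the same low and high ranges had 9 higher and 6 lower, and 1 higher and 24 lower. All tested genes showed the same order, with 63.7% higher and 7.97% lower in the low range and 12.4% higher and 66.1% lower in the high range in WT. In KO these shares were 66.8% and 7.71%, and 10.1% and 67.4%. The 25 members of the middle range had 0 higher and 12 lower in WT, against 26.6% and 32.3% of all genes. In WT the members' medians from low to high range were 0.08, -0.18 and -0.67, against 0.40, -0.04 and -0.51 over all genes. In KO they were 0.15, -0.18 and -0.65, against 0.44, -0.03 and -0.53. The family's median thus lay below that of all genes in each range. The low and high ranges have no outer bound, so for all genes they can reach beyond the members' 41.4 to 60.6% GC. Mrpl57, at 42.3% GC, and Mrps26, at 49.2%, were among the exceptions to the order by GC content, named after their values were seen. Mrpl57 had log2 fold changes of -0.67 in WT and -0.85 in KO. The KO effects had correlations with GC content of 0.09 in cTreg and -0.02 in eTreg.

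With the offset for length and GC content, 37 members were lower and 4 higher in WT eTreg (41.7% and 21% of all genes), and 29 lower and 4 higher in KO eTreg (35% and 23.3%). Of the genes called without the offset, 25 lower and 1 higher kept their call in WT, and 19 lower and 2 higher in KO. The higher call that remained in WT was that of Mrps6, and those in KO were those of Mrps6 and Mrpl13. Of the genes described above as lower, Mrpl34, Mrpl52 and Mrps18a lost their calls in both genotypes, and Mrpl28, Mrps34 and Mrps18b in KO. The log2 fold changes of Mrpl32, Mrpl50 and Mrps18a changed sign in both, and Mrpl32 was then called lower in KO eTreg (-0.25, adjusted p = 0.0279). Signs are relative to 0, while the offset moved the median over all genes below 0. In WT Mrpl32, at -0.07, lay above that median. The members' median was -0.24 in WT, against -0.15 over all genes, and -0.13 in KO, against -0.08, so that the family lay closer to all genes than without the offset.

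**Figure D5:**
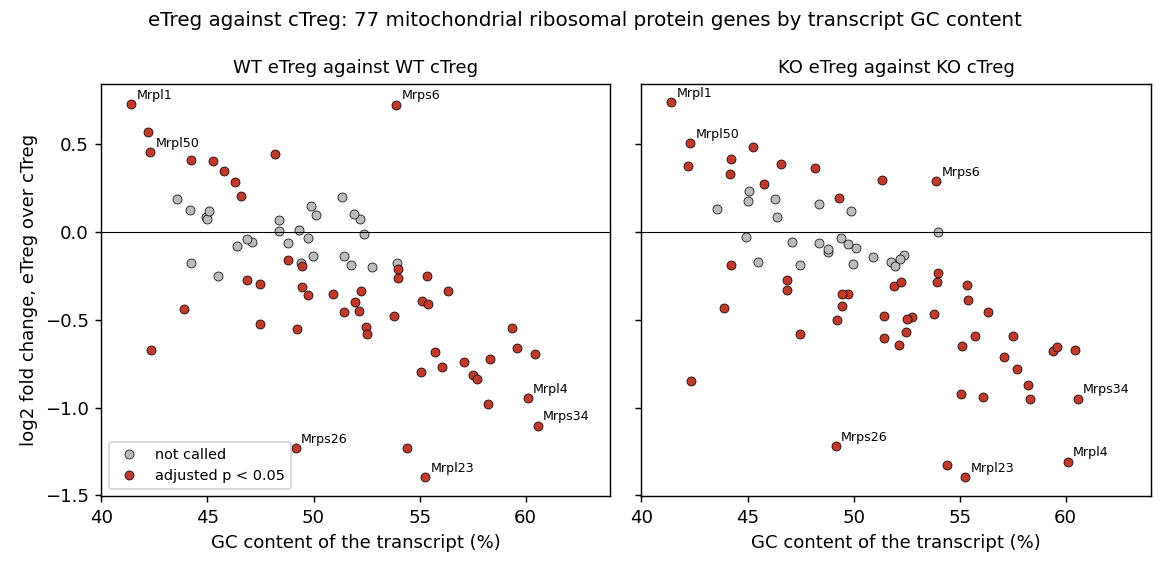
Log2 fold change, eTreg over cTreg, against the GC content of the transcript for the 77 genes in WT (left) and KO (right). Red points passed an adjusted p of 0.05. Members of low GC content such as Mrpl1 lie high and members of high GC content such as Mrps34 and Mrpl4 lie low, and Mrps6 is the called gene that lies high at a GC content above 52.5%.

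The members were also split by promoter motif. In WT eTreg, 13 of the 25 members with an ETS motif were lower and 3 higher (median log2 fold change -0.30), against 22 and 7 of the 43 without it (median -0.19). For the NRF1 motif the counts were 8 lower and 2 higher of 13 (median -0.31), against 27 and 8 of 55 (median -0.19). For the E-box and for the YY1 motif alike, 4 of 5 members were lower and 0 higher, against 31 and 10 of the 63 without it. Of all genes tested 35.8% were lower and 35.7% higher, and of the 77 members 51.9% and 13%. In KO against WT cTreg, members with an ETS motif had 1 fall and 1 rise, and those without it 4 falls and 1 rise (12.6% of all genes fell and 14.8% rose). These medians are descriptions, and the differences were not tested.

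Other genes of mitochondrial gene expression were read from the same fit. Of 5 mitoribosome proteins with other names, Dap3, a small-subunit GTP-binding protein, fell in KO cTreg (log2 fold change -0.18 ± 0.05, edgeR adjusted p = 0.0121), and the others were not called. Of 20 mitochondrial aminoacyl-tRNA synthetases and related enzymes 5 fell and the others were not called. The largest of these falls were Mars2, which charges methionine tRNA (-0.38 ± 0.11, adjusted p = 0.0124), and Gatb, a subunit of the enzyme that makes glutaminyl-tRNA (-0.32 ± 0.11, adjusted p = 0.0408, and 0.0925 in DESeq2, which called 4 of the list lower). Of 15 translation factors 2 fell, namely Guf1, an elongation factor (-0.31 ± 0.08, adjusted p = 0.00595), and Lrpprc, which stabilises mitochondrial messages (-0.31 ± 0.07, adjusted p = 0.00271). Over all genes 12.6% fell. The shares that fell were 25% of the synthetases (5 of 20), 20% of the mitoribosome proteins with other names (1 of 5) and 13.3% of the translation factors (2 of 15). Of the lists below, they were 17.4% of the assembly factors (4 of 23), 22.2% of the regulators (2 of 9) and 0% of the transcription list (0 of 9). DESeq2's Wald test called 11.6% of all genes lower. Of these lists it called 4 of 20, 1 of 5, 2 of 15, 2 of 23, 2 of 9 and 0 of 9, in that order. The lists are small, each share rests on few genes, and whether a list differs from all genes was not tested.

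Assembly factors and enzymes that modify the mitochondrial ribosomal RNA mostly had negative log2 fold changes in KO cTreg (20 of 23), with 4 called lower (12.6% of all genes) and 1 higher (14.8%), and DESeq2 called 2 lower and 1 higher. Ddx28, an RNA helicase of large-subunit assembly, rose by 0.53 ± 0.11 on the log2 scale (edgeR adjusted p = 0.0014). Mtg1, a GTPase of the same pathway (-0.64 ± 0.15, adjusted p = 0.00338), and Mrm1, a methyltransferase of the large ribosomal RNA (-0.59 ± 0.13, adjusted p = 0.00219), fell. Of 9 genes of mitochondrial transcription and DNA maintenance edgeR called 0, with 1 at an unadjusted p under 0.05, and DESeq2 called 0. In KO eTreg edgeR and DESeq2 called 0 genes in all of these lists, with 1 of 5, 0 of 15, 2 of 23, 1 of 9 and 2 of 20 at an unadjusted p under 0.05 in edgeR (other mitoribosome proteins, translation factors, assembly, transcription and synthetases, in that order). Of all genes tested, 2423 of 12461 were at an unadjusted p under 0.05 in edgeR.

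Among 9 tested regulators of mitochondrial biogenesis, Myc was lower in KO cTreg (log2 fold change -1.51 ± 0.15, edgeR adjusted p = 4.22e-05) and in KO eTreg (-1.07 ± 0.15, adjusted p = 0.00287). Pprc1, a coactivator of NRF1, was lower in both as well (-0.46 ± 0.06, adjusted p = 3.14e-05, and -0.22 ± 0.06, adjusted p = 0.0433), though not by DESeq2 in eTreg (adjusted p = 0.0519). Gabpa, the DNA-binding subunit of GABP, was higher in KO cTreg by 0.16 ± 0.06 (adjusted p = 0.0429), and was not called by DESeq2 (adjusted p = 0.059). Between the gates, Esrra, a nuclear receptor of mitochondrial genes, was lower in eTreg by log2 fold changes of -1.27 in WT and -1.44 in KO, and Gabpa was higher by 0.45 and 0.43. The transcripts of the mitochondrial genome, among them both mitochondrial ribosomal RNAs, were not analysed here.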

How the data were processed

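The authors deposited 1 table of raw counts, whole-number read counts by gene symbol for the 12 libraries. Per the labels, a Qiagen RNeasy kit was used for RNA and KAPA RNA HyperPrep for libraries, with ribosomal RNA removed by RiboErase. The submitters' processing notes name HISAT2 2.2.1, Cell Ranger and mm10 without their roles. The counter, its annotation and its strandedness are not stated in the sources used here. Total counts of 14567313 to 19121577 per library limit the precision of low genes.

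The fit used edgeR 4.0.16 in R 4.3.3: filterByExpr, TMM, robust quasi-likelihood F-tests, two-sided, over all 12 libraries in 4 groups, with Benjamini-Hochberg adjustment over 12461 genes in each of 5 contrasts and a threshold of 0.05 (common biological coefficient of variation 0.0768). SE is the log2 fold change divided by the square root of F. The labels give pools of mice but no further origin of the replicates. The p-values therefore set group differences against the spread between these pooled libraries. The members, the lists and the alternatives were chosen with earlier results of these data known. Named are the 6 called members largest in each direction of a contrast, the 3 highest and lowest in RPKM, and 8 genes of particular role (Mrps18a, Mrps18b, Mrps18c, Mrpl12, Mrpl58, Mrps30, Mrps36 and Mrpl44). Genes named beyond these, such as Mrpl3 in KO cTreg, were chosen after their values were seen. Length, GC content and coordinates came from GENCODE vM21 and promoters from RefSeq. Alternatives were DESeq2 1.42.0 (size factors and Wald test), scaling without Rn45s, other count filters, the 6 libraries of a contrast alone, a length and GC offset, the replicate block, and leaving out each library.

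Same-numbered KO and WT eTreg libraries deviated together (correlations 0.257, 0.341 and 0.166), so the numbers may pair them. The labels give no litter or day that would say so. In KO and WT cTreg the values were -0.11, 0.00 and 0.06. Same-numbered eTreg and cTreg libraries had -0.05, -0.18 and 0.02 in WT and 0.23, 0.04 and -0.07 in KO. KO and WT eTreg libraries of different number had -0.31 to 0.07. Elsewhere libraries of different number reached 0.223 (WT eTreg replicate 1 with WT cTreg replicate 2), so values of this size also occurred between libraries of different number. No libraries of a group were duplicates (chi-squared per degree of freedom 3.74 to 10.4). The fit was first tested on simulated data with known changes.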

Additional observations from a re-analysis of the deposited data

How the results depend on the processing

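For KO against WT cTreg the count of members called lower, 7, was 3 with DESeq2's Wald test, 3 without a filter, 4 with the 6 libraries alone, 5 with the replicate block and 13 with the offset by length and GC content, whose median was -0.10. Leaving out 1 library gave 1 to 3 higher and 1 to 6 lower and medians of -0.07 to -0.01. For KO against WT eTreg 1 member, Mrpl12, was called lower with library-size scaling without Rn45s and with the replicate block in the 6 eTreg libraries, and 0 to 1 when a library was left out (medians -0.09 to -0.04). The block changed no other member's call there. Mrps21 had a log2 fold change there of 0.00836 with the offset, 0.00996 with the block and offset together, and -0.107 to 0.0589 when a library was left out. For WT eTreg against WT cTreg the median was -0.14 with scaling without Rn45s, where all genes shifted to 0.08 and 13 members were higher and 33 lower (39.6% and 32% of all genes). Leaving out 1 library gave 8 to 10 members higher and 37 to 42 lower, with medians of -0.23 to -0.21. Of all genes, 33.3 to 35.7% were then higher and 33.6 to 36.4% lower. With the offset 4 members were higher (21% of all genes), the median was -0.24 (all genes -0.15), and Mrpl32 (-0.0712), Mrpl50 (-0.20) and Mrps18a (0.17) reversed. For KO eTreg against KO cTreg the offset gave 4 members higher (23.3% of all genes) and a median of -0.13 (all genes -0.08), and Mrpl50 (-0.13), Mrpl32 (-0.25, adjusted p = 0.0279) and Mrps18a (0.15) reversed. Leaving out 1 library gave 9 to 13 members higher and 36 to 41 lower, with medians of -0.28 to -0.21. Of all genes, 33.3 to 35.9% were then higher and 33.4 to 35.7% lower. The interaction gave 0 calls in every setting. The cause of these changes was not tested. Of the values of single genes, 574 kept direction and side of the threshold when 1 library was left out, 59 lost a call and 3 reversed, and under the other settings these numbers were 402, 29 and 8. The values include genes not called in the contrast concerned, and libraries left out that the contrast does not compare. The numbers that kept their side are therefore no measure of how stable the calls were. Low counts limit Mrps28 and Mrps36 most.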
